A study of Mus musculus with 30 samples.

Results

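Short RNA fragments of 5 myelin mRNAs, Mbp, Mobp, Cnp, Mag and Mal, were followed in small RNA libraries of the mouse prefrontal cortex. A read was taken as a fragment of a gene when all of its 20 to 45 nt matched, without a mismatch and in the sense direction, a protein-coding transcript of that gene in GENCODE M21 and no transcript of any other gene. In the PANDORA-seq libraries 86946 reads with 21798 distinct sequences met this rule, out of 137429426 reads that fell to 1 of 18889 protein-coding genes. The comparison asked whether these fragments differed, in level, length or position, between a mouse model of Alzheimer's disease and its controls.

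The disease group (AD) held hemizygous 5xFAD mice, a transgenic line, and the control group (WT) held their littermates without the transgenes. Both groups were congenic on C57BL/6J, held both sexes and were 6 months old; the labels give the tissue as cortex and the study's methods as prefrontal cortex. The transgenes of this line are driven by the Thy1 promoter, which is active in neurons, so the oligodendrocytes that make myelin are not the cells meant to express them. Small RNA cut from a gel was sequenced in 16 libraries with PANDORA-seq (8 per genotype) and in 14 with traditional-seq (7 per genotype). In PANDORA-seq the RNA is treated with T4PNK, which repairs RNA ends, and with AlkB, which removes methyl groups that stop reverse transcription, whereas traditional-seq uses neither enzyme. The labels do not say which mouse gave which library, so the p-values measure only the spread between these libraries.

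Oligodendrocytes wrap axons in myelin, a stack of compacted membranes that speeds conduction, and these cells also feed the axon. Myelin basic protein (Mbp) holds the inner faces of the membrane together, and its mRNA is carried into the cell's processes and translated at the myelin sheath. Myelin mRNAs are among the most abundant transcripts of mature oligodendrocytes and are used in brain tissue as marks of that cell type. Damage to myelin is known in brains with Alzheimer's disease and in its mouse models.

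The PANDORA-seq libraries held 54926347 to 105876141 reads, and 3042346 to 14476006 of them fell to 1 protein-coding gene. The mean of these coding reads was 10053600 ± 3258310 in WT and 7125070 ± 2822630 in AD (SD, n = 8 each). Reads of 15 to 40 nt went the other way, with means of 66565800 ± 10992700 and 71392900 ± 14541300. Levels are given as reads per 1000000 reads of 15 to 40 nt (RPM), because the share of longer reads differed between the groups. Of all reads of 15 to 45 nt, 21.8% ± 3.75 (SD, n = 8) were 41 to 45 nt long in WT and 10.3% ± 3.87 (n = 8) in AD, and the shares of 7 of 8 AD libraries were under the WT range. The 2 genes with the most reads, Tmem38b and Lars2, took 8.42% to 46.8% of the coding reads of a library. Antisense matches came to 0.366% to 1.39% of the coding reads. Genes that mark neurons of the cortex were well covered, with 324.5 RPM for Snap25, a protein of synaptic vesicle fusion.

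The fragments most often read within the coding sequence of Mobp, Cnp, Mag and Mal are printed to make plain what such a fragment is and what surrounds it in the transcript. Lower case letters are the fragment itself, 5′ to 3′, with T for U. The capital at each end is not part of the fragment but the neighbouring base of the transcript, just before the 5′ end and just after the 3′ end. Numbers after the gene symbol are positions in the reference transcript, counted from its first base.
Mobp 300 to 342: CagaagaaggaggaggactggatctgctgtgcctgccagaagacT
Mobp 240 to 277: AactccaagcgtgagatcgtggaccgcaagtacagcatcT
Mobp 245 to 277: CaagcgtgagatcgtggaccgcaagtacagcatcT
Cnp 1277 to 1313: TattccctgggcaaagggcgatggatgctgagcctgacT
Cnp 1171 to 1208: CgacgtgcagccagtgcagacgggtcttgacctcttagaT
Cnp 461 to 489: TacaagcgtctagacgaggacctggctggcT
Mag 280 to 313: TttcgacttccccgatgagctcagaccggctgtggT
Mag 1692 to 1726: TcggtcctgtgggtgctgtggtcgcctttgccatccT
Mag 423 to 449: TattgggagacctgggcctacgaaactgT
Mal 700 to 740: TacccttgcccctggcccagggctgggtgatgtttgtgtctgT
Mal 648 to 680: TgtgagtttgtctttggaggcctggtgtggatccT
Mal 706 to 745: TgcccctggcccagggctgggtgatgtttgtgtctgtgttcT

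All 12 of these fragments were followed by a T in the transcript, and 11 were preceded by T or C. Over all fragments of the gene a T followed in 38.4% for Mobp, 62.4% for Cnp, 58.1% for Mag and 55.2% for Mal. For Mobp a C followed more often, in 41.2%. In the median of 9181 genes with at least 1000 reads, a T followed 64.8% of the fragments, so this base is not particular to the 4 genes. The first base of the fragment was A or G in 10 of the 12. The Mobp fragments lay in exon 3 on the plus strand of GRCm38, at chr9:120167965-120168007, chr9:120167905-120167942 and chr9:120167910-120167942, and the last of these has the same 3′ end as the one before it. The Cnp fragments lay on the plus strand at chr11:100580648-100580684 and chr11:100580542-100580579 in exon 4 and at chr11:100576531-100576559 in exon 2. The Mag fragments lay on the minus strand at chr7:30911653-30911686 and chr7:30911517-30911543 in exon 5 and at chr7:30901103-30901137 in exon 10. Of the Mal fragments on the minus strand, those at chr2:127640304-127640344 and chr2:127640299-127640338 overlapped in exon 2. The remaining one crossed the splice junction from exon 1 to exon 2 and therefore spans an intron, with its outer ends at positions 127640364 and 127656048 of chromosome 2. The most abundant of the 12, Cnp 1277 to 1313, had 557 reads and was found in all 16 libraries, whereas the others had between 32 and 143 reads.

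The fragments came from many positions of the transcripts, with some positions used far more than others. The reference transcript used for positions was the one with the most matching reads of each gene. On Mbp, whose gene lies on chromosome 18 with 14 coding transcripts, fragments began at 1489 of 2037 possible positions (73.1%), and the 10 most used positions held 15.2% of the reads on that transcript. The shares of possible positions at which fragments began were lower for the other genes, at 44.4% for Cnp, 37.6% for Mag, 31.4% for Mal and 25.9% for Mobp, each with fewer reads. Their 10 most used positions held more of the reads, with 16.6% for Mal, 24.3% for Cnp, 24.8% for Mobp and 27.9% for Mag. In GRCm38 Mobp lies at chr9:120149707-120181484 and Cnp at chr11:100574904-100591729 on the plus strand, and Mag at chr7:30899176-30914873 and Mal at chr2:127633226-127656695 on the minus strand. Fragments that crossed a splice junction made up 10.9% of the reads on the reference transcript for Mbp, 7.81% for Mal, 6.69% for Mag, 4.77% for Cnp and 1.52% for Mobp, and every junction of the 5 reference transcripts was crossed by at least 1 read. These reads come from spliced RNA.

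The genes differed in where along the mRNA the fragments lay. For Mbp 69.9% of all reads of the gene fell in the 3′UTR and 17.2% in the coding sequence, and for Mal, a membrane proteolipid of compact myelin, 70.1% fell in the 3′UTR. For Cnp, an enzyme of the cytoplasmic channels of myelin that hydrolyses cyclic nucleotides, 69.3% fell in the coding sequence. For Mag, an adhesion protein on the myelin layer facing the axon, 54.3% fell in the coding sequence and 43.5% in the 3′UTR. Per 100 nt the 3′UTR of Mag held 644 reads and its coding sequence 246, the reverse of the order in Mobp, with 158 reads per 100 nt of 3′UTR and 836 of coding sequence. Mobp encodes a small protein of compact myelin with a long 3′UTR of 2901 nt, and 69.8% of its reads on the reference transcript lay entirely within the first 520 nt, or 15.8% of the transcript. The annotated 5′UTR of Mal, 562 nt long, was nearly empty with 20 reads, and coverage began near position 471 in AD and 481 in WT.

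A few positions stood out. On Mag, fragments starting at positions 2300 to 2310 of the reference transcript, in its 3′UTR, held 1932 reads, or 24.9% of all reads on that transcript, and position 2300 alone held 1074 reads and was used in all 16 libraries. Position 1277 of Cnp, the start of the most abundant printed fragment, held 702 reads (7.32% of the reads on its reference transcript). The most used 3′ end of Mbp, position 1720 of its transcript and in the 3′UTR, held 2049 reads (4.21% of those on the reference transcript) in 26 distinct sequences that all ended there. On Mobp the start at position 468 of the transcript, near the beginning of the 3′UTR, held 419 reads (6.05% of those on the reference transcript).

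**Figure D1:**
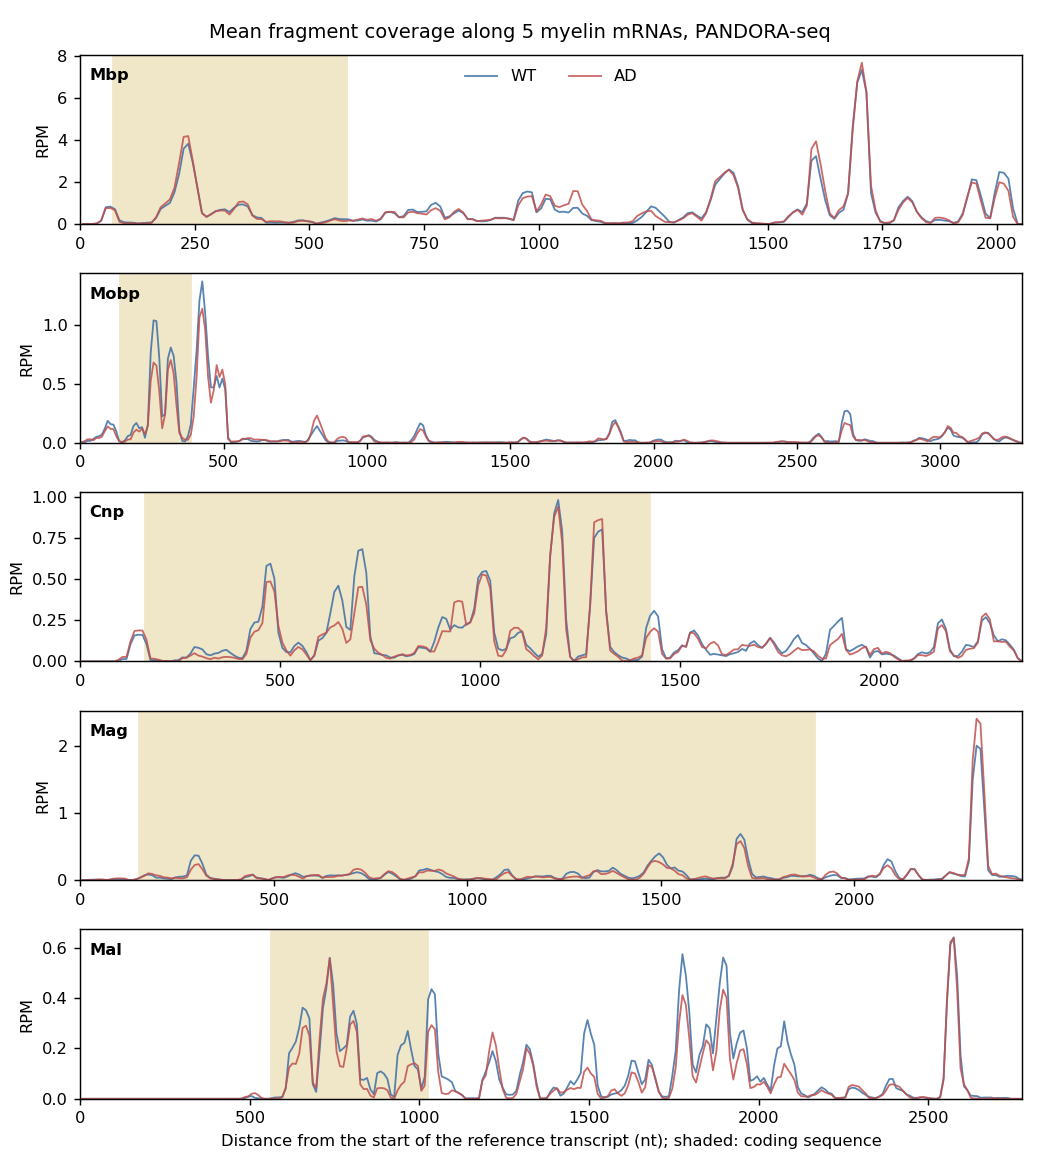
Mean coverage in RPM (vertical axis) in bins of 10 nt along the reference transcript (horizontal axis, nt from its first base) for each of the 5 genes, with WT and AD as separate lines over 8 libraries each. The bin of highest coverage was the same in both groups for each gene, at position 1701 for Mbp, 421 for Mobp, 1191 for Cnp, 2311 for Mag and 2571 for Mal.

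The profiles of the groups lay close together. The correlation (Pearson's r) of WT with AD mean coverage across bins was 0.99 for Mbp, 0.98 for Mobp, 0.96 for Cnp, 0.98 for Mag and 0.95 for Mal, over 206 to 329 bins of 1 transcript, which are not independent since a fragment covers several bins. In single libraries the highest bin lay within 20 nt of the pooled one in 16 of 16 libraries for Mbp and Mag and in 14 for Mobp. In Cnp and Mal this was the case in 7 of 16 libraries each.

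The bases around the fragment ends differed from the composition of the transcripts. The base after the 3′ end was T or C in 77.3% ± 5.13 (SD, n = 8 WT libraries) of the Mbp reads, against 50.1% of the bases of the Mbp transcript, and in 79.0% to 86.8% on average for the other genes in WT. A T or C before the fragment together with A or G as its first base was found in 41.1% ± 8.65 of the WT and 50.6% ± 8.21 of the AD reads of Mbp, against 21.1% of the adjacent base pairs in the transcript. For Cnp these shares were 65.0% ± 8.75 in WT and 66.6% ± 6.13 in AD. In all 16 libraries and for each of the 5 genes this step was more frequent than in the transcript. It was not compared with other genes. The difference between WT and AD was not tested.

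Compared with other genes, fewer fragments of Mbp and Mobp were preceded by T. Among 9181 genes with at least 1000 reads, the median gene had T just before 66.0% of its fragments, and the values of 42.3% for Mbp and 36.6% for Mobp lay at the percentiles 2.43 and 1.08. Cnp with 55.2%, Mag with 52.1% and Mal with 57.2% also lay below the median. In place of T, Mbp and Mobp fragments were more often preceded by A (14.3% and 19.1%, median gene 7.71%), C (30.1% and 31.6%, median gene 20.3%) or G (13.3% and 12.7%, median gene 5.67%). The base composition of these transcripts, with 21.7% T in Mbp and 22.5% in Mobp, was not accounted for in this ranking.

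Mbp gave by far the most fragments of the 5 genes. Per kilobase of reference transcript its mean level was 24.6 RPM in WT (n = 8) and 24.6 in AD (n = 8), followed by Cnp with 3.92 in WT and 3.55 in AD, Mag with 3.05 and 2.999, Mal with 2.65 and 2.07, and Mobp with 2.18 and 1.97. Mbp stood apart from the other genes, whereas the means ± SD of neighbours in the order of the remaining genes overlapped. All genes were read in the same libraries, and differences between genes within a library were not tested. Before division by length Mbp ranked 258th of the 18889 genes by mean level, and the others ranked between 2694th (Cnp) and 3544th (Mal).

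The levels varied several-fold between libraries of the same group. In fragments of 20 to 45 nt, Mbp was at 31.2 RPM in the lowest, 49.2 in the median and 81.6 in the highest WT library, and at 29.3, 46.3 and 99.3 RPM in AD. The groups overlapped almost fully, with 1 AD library below and 1 above the range of WT. Mobp was at 3.47, 7.31 and 11.2 RPM in WT and at 3.06, 6.09 and 10.9 RPM in AD, again with overlap. For Cnp the WT libraries ran from 3.98 over 8.25 to 19.8 RPM and the AD libraries from 4.33 over 8.64 to 11.3 RPM, so that every AD library lay inside the WT range. Mag ran from 3.63 over 6.50 to 16.4 RPM in WT and from 2.79 over 7.32 to 14.7 RPM in AD. Mal was the gene with the lowest AD values, from 2.76 over 5.18 to 9.44 RPM, against 2.98, 6.99 and 13.9 RPM in WT. In AD replicate 1 Mbp stood at 99.3 RPM, above the next AD library at 60.1 RPM.

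**Figure D2:**
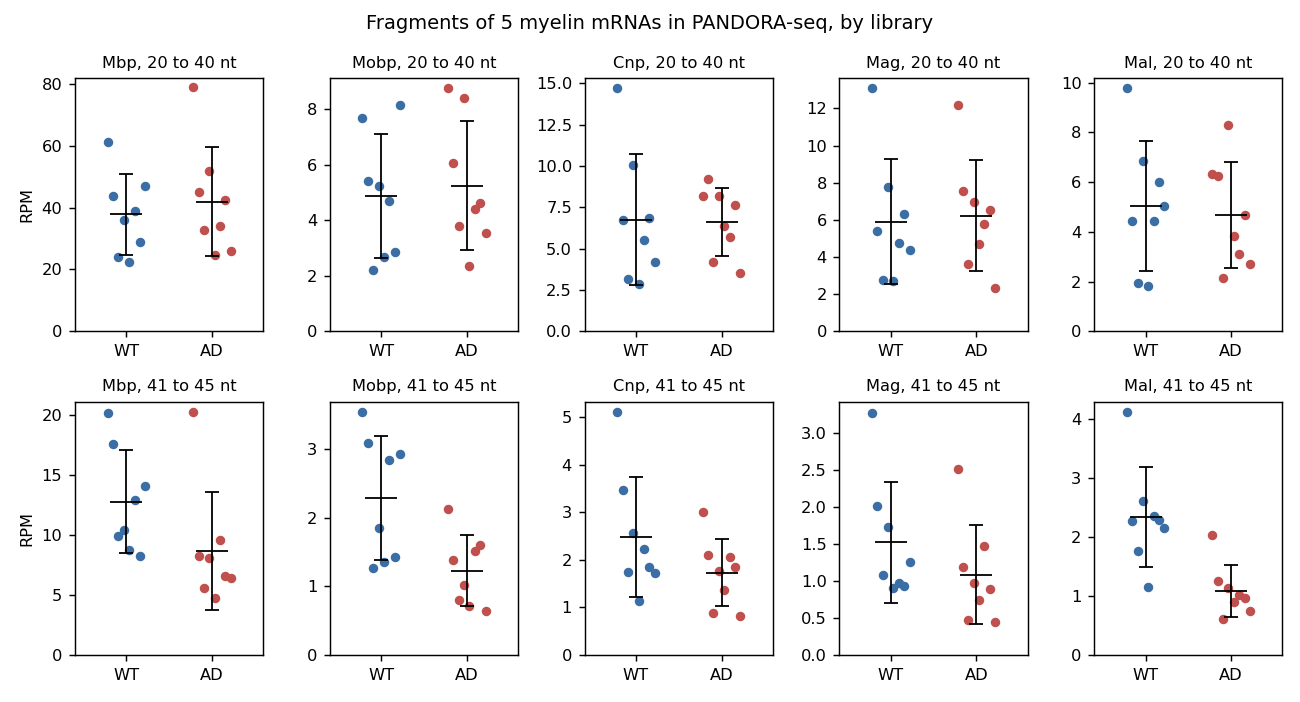
Level in RPM (vertical axis) of each gene in each PANDORA-seq library, for fragments of 20 to 40 nt and of 41 to 45 nt. Each gene has 8 WT and 8 AD points per length class, with the group mean and its SD. The groups overlap for all 5 genes in each length class. At 20 to 40 nt Mbp ran from 22.5 to 61.4 RPM in WT and from 24.6 to 79.0 RPM in AD. At 41 to 45 nt Mbp ran from 8.24 to 20.2 RPM in WT and from 4.75 to 20.2 RPM in AD.

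In these levels the means of Mbp were equal within error, 50.6 ± 17.1 RPM in WT and 50.7 ± 22.2 RPM in AD (SD, n = 8 each). The mean of Mal was 7.37 ± 3.41 RPM in WT and 5.74 ± 2.44 RPM in AD, and those of Mobp (7.15 ± 3.06 and 6.47 ± 2.68), Cnp (9.24 ± 5.12 and 8.36 ± 2.63) and Mag (7.42 ± 4.09 and 7.30 ± 3.62) were closer. In bulk tissue fewer oligodendrocytes and less fragment RNA per oligodendrocyte cannot be told apart.

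Relative to the fragments of all other protein-coding genes, all 5 log2 fold changes were positive, but none passed the test. Gene sums were compared by edgeR's quasi-likelihood test with TMM normalization, which sets most genes to no change, and p-values were adjusted by Benjamini-Hochberg over 13319 genes. No gene was called at 20 to 45 nt, 0% of those tested, while 1337 had an unadjusted p under 0.05, DESeq2 called 14 and edgeR's likelihood ratio test called 0. The log2 fold change of AD over WT was 0.70 for Mag (SE 0.32, adjusted p = 0.49), 0.62 for Mbp (SE 0.36, adjusted p = 0.52) and 0.58 for Cnp (SE 0.25, adjusted p = 0.46). For Mobp it was 0.41 (SE 0.41, adjusted p = 0.69) and for Mal 0.27 (SE 0.30, adjusted p = 0.72). The median gene was at 0.01. The 95% intervals of the log2 fold change ran from -0.09 to 1.33 for Mbp and from 0.06 to 1.33 for Mag.

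These signs depended on the scale. When the libraries were set to their totals of 15 to 40 nt instead, the median of all genes moved to -0.65, and the log2 fold changes became 0.00 for Mbp, -0.02 for Mag, -0.15 for Cnp, -0.15 for Mobp and -0.36 for Mal. On both scales the 5 genes lay above the median gene. For fragments of 20 to 40 nt the TMM-scaled values were 0.31 to 0.59 with adjusted p of 0.60 to 0.76 and 0 of 13015 genes called (0%, with 1088 at an unadjusted p under 0.05, and 0 by DESeq2 and by the likelihood ratio test). At 20 to 40 nt the levels were 37.8 RPM in WT and 42.01 in AD for Mbp, 5.90 and 6.21 for Mag, 4.87 and 5.25 for Mobp, 6.76 and 6.62 for Cnp and 5.04 and 4.66 for Mal.

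The groups parted on the RPM scale in the longest fragments. At 41 nt, its most frequent length, Mbp had nearly the same level in both groups, with 3.21 RPM in WT and 3.22 in AD. At 43 nt the values were 2.30 in WT and 1.63 in AD, at 44 nt 2.04 and 0.866, and at 45 nt 2.34 and 0.632 RPM. At 45 nt the log2 ratio of the group means was -1.22 for Mag, -1.40 for Cnp, -1.89 for Mbp, -2.87 for Mobp and -3.13 for Mal. All reads of the libraries, whatever their source, showed log2 ratios of -1.21 at 43 nt, -2.09 at 44 nt and -2.10 at 45 nt.

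**Figure D3:**
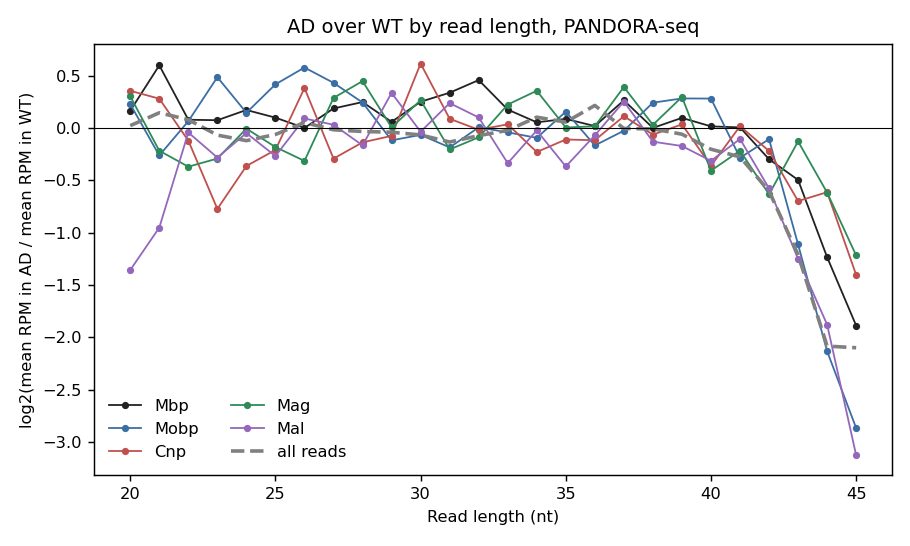
Log2 of the mean AD over the mean WT level (vertical axis) at each read length from 20 to 45 nt (horizontal axis) for the 5 genes and for all reads, where 0 is equal levels. The lines scatter around 0 for shorter reads, with all reads at -0.28 at 41 nt and -0.60 at 42 nt. They fall over the longest lengths to between -3.13 (Mal) and -1.22 (Mag) at 45 nt, with all reads at -2.10. Single genes with few reads also lay far from 0 at short lengths, as Mal at 20 nt (-1.36, 60 WT and 25 AD reads).

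The ratio of the longest reads was lowest in Mal and Mobp. Mal fragments of 43 to 45 nt were at 0.828 RPM or more in every WT library and at 0.740 RPM or less in every AD library, with means of 1.43 and 0.366 RPM. Such a gap between the groups was present in 10.9% of 10952 genes. For Mobp the means were 1.34 and 0.385 RPM, with 6 of the 8 AD values under all WT values. For Mbp they were 6.68 and 3.13 RPM, also with 6 of 8 under the WT range. For Cnp they were 1.51 and 0.831 RPM, and for Mag 0.883 and 0.611 RPM.

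The length of the fragments was then tested within each gene, as the log2 ratio of its reads of 41 to 45 nt to its reads of 20 to 40 nt, which does not depend on how the libraries are scaled. The share of 41 to 45 nt fell from 33.7% ± 6.83 in WT to 19.7% ± 4.32 in AD for Mal, from 32.7% ± 4.42 to 19.5% ± 5.15 for Mobp and from 25.4% ± 2.87 to 16.9% ± 3.35 for Mbp (SD, n = 8 each). In these 3 genes all 8 AD values were under all WT values, as was so in 20.7% of 10932 genes. The share fell from 27.95% ± 5.42 to 20.4% ± 3.90 for Cnp, where 6 of the 8 AD values were under all WT values, and from 21.4% ± 5.35 to 14.5% ± 3.02 for Mag, where 3 did. Over all coding genes without Tmem38b and Lars2 the shares were 30.7% ± 3.30 and 17.7% ± 4.30.

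All 5 genes passed this test, as did most genes. By limma 9838 of 10952 genes were lower in AD (89.8%) and 0 were higher, with a median log2 difference of -1.07. The difference was -1.06 for Mal (SE 0.23, adjusted p = 0.00044) and -1.03 for Mobp (SE 0.22, adjusted p = 0.0005), at the middle of all genes. It was -0.76 for Mbp (SE 0.20, adjusted p = 0.0019), -0.65 for Mag (SE 0.25, adjusted p = 0.018) and -0.59 for Cnp (SE 0.21, adjusted p = 0.013). Mbp, Mag and Cnp lay at the percentiles 82.5, 88.8 and 91.6 of the 10952 genes, where a high percentile is a small loss of long fragments. At 43 to 45 nt alone the share was 13.3% ± 1.67 in WT and 5.99% ± 2.64 in AD for Mbp and 19.8% ± 4.03 and 5.96% ± 4.35 for Mobp, with no overlap of the groups in either, as in 35.6% of genes. The ratio of these longest reads to reads of 20 to 42 nt fell by 2.32 for Mobp, 2.13 for Mal, 1.38 for Mbp, 0.93 for Cnp and 0.72 for Mag on the log2 scale, where 97.2% of 9290 genes were called lower by limma. Whether the shift in length across the whole libraries takes part in these differences was not tested.

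**Figure D4:**
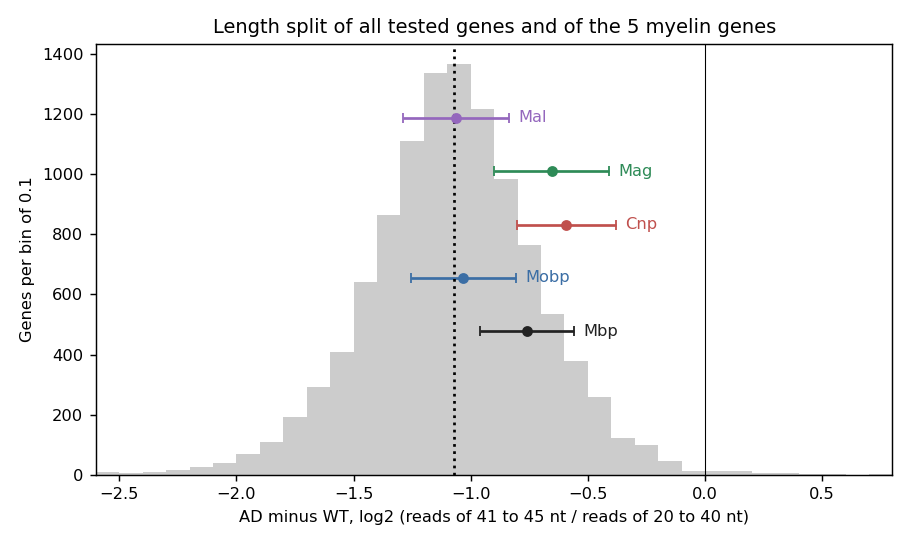
Number of genes (vertical axis) by the log2 difference, AD minus WT, of the ratio of reads of 41 to 45 nt to reads of 20 to 40 nt (horizontal axis), with values beyond the axis put in the end bins and the 5 genes marked. Mal and Mobp at -1.06 and -1.03 lie near the median of -1.07, and Mbp, Mag and Cnp at -0.76 to -0.59 lie to its right.

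Among long fragments alone, compared with long fragments of other genes, the log2 fold changes of the 5 genes were again positive. At 41 to 45 nt the log2 fold change on the TMM scale was 0.99 for Cnp (SE 0.29, adjusted p = 0.11), 0.97 for Mag (SE 0.34, adjusted p = 0.16) and 0.88 for Mbp (SE 0.36, adjusted p = 0.21) by edgeR. For Mobp it was 0.48 and for Mal 0.33. None of the 5 was called, where 0.0467% of 10716 genes were, all of them lower. Cnp passed with DESeq2 (adjusted p = 0.036, where 1.83% of genes were called higher), with edgeR's likelihood ratio test (adjusted p = 0.040, 1.31% called higher) and without AD replicate 5 (adjusted p = 0.030, 1.57% called higher). On the scale of library totals all 5 values turned negative, with the median gene at -1.44. Mal at -1.11 (adjusted p = 0.0071) and Mobp at -0.90 (adjusted p = 0.027) were then called lower, among 88.1% of all genes, while Mbp at -0.56, Cnp at -0.52 and Mag at -0.49 were not.

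The balance between regions of the mRNA was not called different between the groups. The log2 ratio of 3′UTR reads to coding reads at 20 to 40 nt differed by -0.12 for Mbp, -0.08 for Cnp, 0.04 for Mal, 0.09 for Mobp and 0.28 for Mag. Adjusted p by limma was at least 0.89 for each. Of 9404 genes tested 0 were called (0%), 465 had an unadjusted p under 0.05, and the median gene was at 0.12. Within Mbp, 4984 reads (9.09%) matched only a transcript whose exon runs on into the first intron of the reference transcript. They were at 5.57 ± 2.49 RPM in WT and 3.54 ± 1.19 RPM in AD (SD, n = 8 each), with ranges of 2.84 to 8.49 and 1.69 to 5.57 RPM that overlap. Whether these levels differ was not tested.

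Distinct sequences were compared one by one, and few myelin sequences had enough reads. Of 34939 sequences with reads in enough libraries, 12 came from these genes, 10 of them from Mbp and 1 each from Cnp and Mag, while none of Mobp or Mal passed this filter. Calls needed a fold change above 2 besides an adjusted p below 0.05. By edgeR 738 sequences (2.11%) were lower in AD and 10 (0.0286%) higher, and 725 of the lower ones were 43 to 45 nt long. One of the 10 was a myelin fragment of 37 nt that starts at position 1699 of Mbp, in the 3′UTR and near the highest coverage of that mRNA.

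This Mbp fragment was at 0 (where 0 reads allow up to 0.0365 RPM, by counting error only) to 0.254 RPM in WT and at 0.0632 to 0.882 RPM in AD, with means of 0.0997 ± 0.0941 and 0.389 ± 0.336 RPM (SD, n = 8 each). In reads it had 14, 18, 5, 1, 0, 5, 5 and 3 in WT replicates 1 to 8 and 45, 19, 46, 19, 6, 11, 43 and 6 in AD replicates 1 to 8. Of the WT libraries only replicates 1 and 2 reached 10 reads, the minimum count of the filter. The fragment thus entered the test mainly through AD libraries, and its call carries this selection. The groups overlapped, and 4 of 8 AD libraries were above every WT library. Its log2 fold change was 3.34 (SE 0.84, adjusted p = 0.034 by edgeR) on the TMM scale. The call was lost on the scale of library totals (1.94, adjusted p = 0.17) and among sequences of 20 to 40 nt alone (3.22, adjusted p = 0.98, 0 of 26110 called). It was also lost when any of WT replicates 1 to 7 or AD replicate 1 was left out, with adjusted p of 0.053 to 0.074.

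With all libraries the other tested myelin sequences were not called. The most abundant of Mbp, of 39 nt from position 1682 of the transcript, in the 3′UTR, was at 0.380 ± 0.301 RPM in WT and 0.465 ± 0.299 RPM in AD with 461 reads in all. The printed fragment Cnp 1277 to 1313 was at 0.452 ± 0.286 and 0.558 ± 0.262 RPM (log2 fold change 1.40, adjusted p = 0.13 by edgeR). The sequence of 36 nt from the much used start 2300 of Mag was at 0.229 ± 0.228 and 0.236 ± 0.183 RPM (log2 fold change 1.01, adjusted p = 0.52). A sequence of 28 nt from position 1038 of Mbp, with 0.137 ± 0.147 RPM in WT and 0.295 ± 0.174 RPM in AD, missed the threshold (log2 fold change 2.16, adjusted p = 0.074) and was called by edgeR's likelihood ratio test, which called 0.306% of sequences higher. With 1 library left out, alternatives chosen after seeing the data, edgeR called Cnp 1277 to 1313 without AD replicate 5 (adjusted p = 0.041) or 6 (adjusted p = 0.045). A Mobp sequence of 38 nt, not tested with all libraries, was called without WT replicate 6 or 8 or AD replicate 5 or 7 (adjusted p of 0.0085 to 0.037). The count of called Mbp sequences was 6 without WT replicate 8 and 5 without AD replicate 5, and 0 to 2 without any other library. Calls of all sequences rose as well, with 215 of 42217 higher in AD (0.509%) without WT replicate 8, 89 of 38031 (0.234%) without AD replicate 5 and 79 of 40974 (0.193%) without AD replicate 6, but 0.0127% without WT replicate 6 and 0.0151% without AD replicate 7.

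Further myelin genes mostly had positive log2 fold changes at 20 to 45 nt as well, on the TMM scale used for the lists here. For most of them the sign flips on library totals, where 4 of 16 genes of myelin proteins and 1 of 12 of myelin lipid synthesis were positive. On the TMM scale, of the 16 further genes of myelin proteins 0 were called and 14 had a positive log2 fold change. Their median was 0.52, against 0.58 for the 5 genes and 0.01 for all genes. Tppp, a tubulin-binding protein of oligodendrocytes, was at -0.14, and Cntn2, an adhesion protein near the node of Ranvier, at 0.36. Of 12 genes of myelin lipid synthesis 0 were called and the median was 0.16, with 0.32 for Scd2, a fatty acid desaturase, and -0.08 for the cholesterol gene Hmgcs1.

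Genes of the oligodendrocyte lineage also had positive medians on the TMM scale. The 12 regulators had a median of 0.55 and all 12 were positive, with 0.62 for Qk, an RNA-binding protein needed for myelin mRNAs, 0.81 for Bcas1 and 0.44 for the transcription factor Olig1. The 10 genes of precursors had a median of 0.40, with -0.23 for Cspg5, 0.76 for Ptprz1 and 0.44 for the growth factor receptor Pdgfra. None of either list was called. On library totals, where the median gene was at -0.65, the medians turned to -0.15 for the 5 genes, -0.21 for the other myelin proteins, -0.51 for lipid synthesis, -0.19 for the regulators and -0.16 for the precursors, again with 0 genes called.

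Markers of other cells of the cortex were compared in the same test. The 15 neuronal genes had a median of -0.18, with -0.19 for Snap25, -0.36 for Syt1 and -0.16 for Camk2a. The medians were 0.47 for 13 astrocyte genes, 0.81 for 15 microglial genes, 0.69 for 10 endothelial genes and 0.26 for 5 erythroid genes, and 0 genes of any list were called. Named by their level, the astrocyte genes Slc1a2 and Sparcl1 were at -0.10 and 0.04, the microglial genes Apoe, Cst3 and Ctsd at 0.58, 0.66 and 0.64, the endothelial genes Bsg, Flt1 and Itm2a at 0.27, 0.78 and 0.36, and the erythroid genes Hba-a1, Hbb-bs and Alas2 at -0.30, 0.26 and -0.07. On library totals the medians were -0.84 for neurons, -0.10 for astrocytes, 0.16 for microglia, 0.23 for endothelium and -0.22 for erythroid cells. Apoe is also made by astrocytes.

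The summed levels of these lists overlapped between the groups. Per 1000000 coding reads without Tmem38b and Lars2, the sum of the 5 genes ran from 415 over a median of 636 to 1866 in WT and from 340 over 1149 to 2802 in AD. The microglial sum ran from 649 over 1434 to 2692 in WT and from 1126 over 2279 to 3092 in AD, and the endothelial sum from 224.6 over 299.7 to 468 and from 277 over 426 to 911. The neuronal sum had medians of 14400.1 in WT and 13532 in AD. The part of the make-up of the tissue pieces in the values of the myelin genes was not tested.

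The genes whose levels followed those of the 5 genes most closely were Csrp1, with a Pearson correlation of 0.98 over the 16 libraries, Bcas1 and Plekhb1 with 0.95, Tmem88b with 0.95 and Gna12 with 0.94, among 6653 genes compared on the log2 CPM scale. The correlations between pairs of the 5 genes were 0.84 to 0.97, highest for Mbp with Mobp and next for Cnp with Mag (0.96). All of these values share the same libraries and the same scaling, and they describe these libraries only. The log2 fold changes of the 5 closest genes were 0.59 for Csrp1, 0.81 for Bcas1, 0.71 for Plekhb1, 0.51 for Tmem88b and 0.43 for Gna12, and none was called.

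Traditional-seq detected the same mRNAs at lower levels. Its libraries held 9370669 to 17053412 reads, of which 60806 to 367661 fell to 1 protein-coding gene. At 20 to 40 nt Mbp was at 39.9 ± 15.2 RPM in PANDORA-seq (SD, n = 16) and 13.6 ± 6.23 RPM in traditional-seq (n = 14), Mobp at 5.06 ± 2.21 and 1.503 ± 0.905, and Cnp at 6.69 ± 3.05 and 1.25 ± 0.597. Mag was at 6.05 ± 3.07 and 0.615 ± 0.433 RPM and Mal at 4.85 ± 2.31 and 0.934 ± 0.399 RPM. The difference of mean log2(RPM + 0.1) was 1.61 for Mbp, 1.83 for Mobp, 2.20 for Mal, 2.36 for Cnp and 3.17 for Mag. With 1 RPM added in place of 0.1 the differences were smaller and in another order, 1.27 for Mobp, 1.52 for Mal, 1.53 for Mbp, 1.73 for Cnp and 2.05 for Mag, and with 0.01 RPM they were 1.61 for Mbp to 3.42 for Mag. With each of these, in a two-sided permutation test each of the 5 had p = 1e-05, the smallest that 100000 shuffles can give, and an adjusted p of 1e-05 over the 5 tests. The test pooled the genotypes and shuffled all libraries as independent, though libraries of the 2 protocols may come from the same mice. The same test with 0.1 RPM added called 99.2% of 8858 genes higher in PANDORA-seq, all of them at 1 RPM or more in that protocol, so that these calls are not particular to the 5 genes.

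The ratio between the protocols differed among the 5 genes. With 0.1 RPM added to each mean, the log2 ratio of mean levels was 2.45 in the median of the 8858 genes. These genes were kept by their level in PANDORA-seq, which can raise their ratios and so move the percentiles given here. Mbp with 1.55 and Mobp with 1.69 lay at the percentiles 5.89 and 8.78, Mal with 2.26 and Cnp with 2.34 near the middle at 36.5 and 41.7, and Mag with 3.10 at 88.1. The protocols differ in enzyme treatment and in depth, and their parts in these values cannot be told apart. Their libraries also differ in make-up. Of the reads of 20 nt or more, 5.73% to 19.2% fell to 1 protein-coding gene in PANDORA-seq and 0.704% to 3.28% in traditional-seq.

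**Figure D5:**
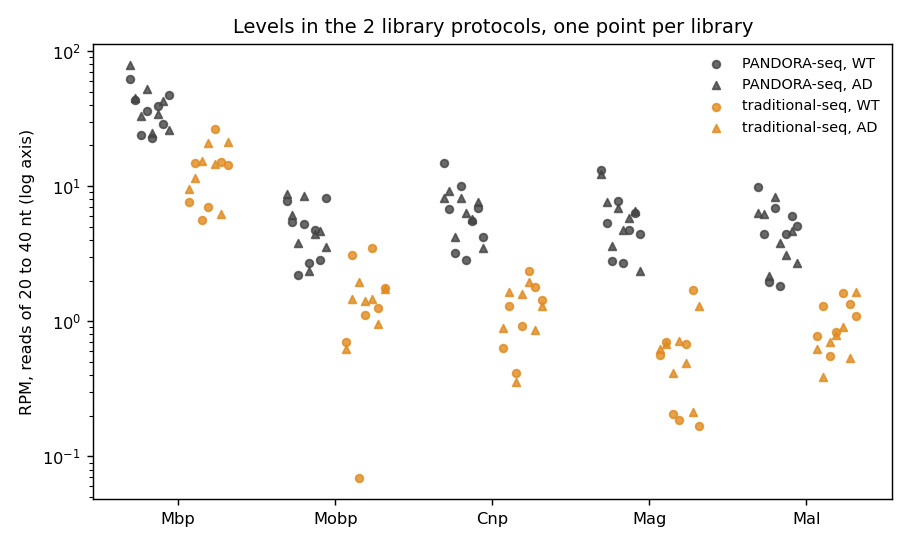
Level in RPM of fragments of 20 to 40 nt on a log axis (vertical) of each gene in PANDORA-seq and in traditional-seq, with 1 point per library (16 and 14). Every gene lies higher in PANDORA-seq, from Mbp with means of 39.9 and 13.6 RPM to Mag with 6.05 and 0.615 RPM.

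Between WT and AD traditional-seq called none of the 5 genes. Of 3291 genes tested 1 was called (0.0304%), Thy1, with a log2 fold change of 1.46 (adjusted p = 0.025 by edgeR), and 112 genes had an unadjusted p under 0.05. Thy1 is the gene whose promoter drives the transgenes, and in PANDORA-seq its log2 fold change was 0.83 (adjusted p = 0.52). The log2 fold change was 0.24 for Mbp (SE 0.18), 0.09 for Cnp (SE 0.37), -0.04 for Mobp (SE 0.34) and -0.45 for Mal (SE 0.30), each with an adjusted p of 0.9994. Mag had too few reads for the test, 50 in WT and 53 in AD. The means at 20 to 40 nt were 13.01 RPM in WT and 14.2 RPM in AD for Mbp, with all libraries of the groups overlapping in range.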

How the data were processed

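The authors sequenced small RNA in 30 libraries and deposited, for each, the distinct sequences left after adapter trimming with their length and their count of reads, of 15 to 45 nt in PANDORA-seq and 15 to 42 nt in traditional-seq. The trimming tool is not given in the sources used here. These deposited counts were neither normalized nor aligned, and the authors' own annotation with SPORTS1.1 was not used here. The labels name the build mm39, but no coordinates come with the counts.

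Every sequence of 20 to 45 nt was matched exactly to all GENCODE M21 transcripts (GRCm38), and reads that matched transcripts of 1 protein-coding gene, sense, were summed per gene. The reference transcript of a gene was the coding transcript with the most reads, and a fragment's region was that of its midpoint. No genome was searched, so a match to an unannotated copy would not be seen. Reads that also matched a transcript of another annotated gene were left out. They were 3.73% of the sense reads for Mbp and 1.44% for Mobp, and 0 for the other genes. Whether those other annotated genes are near-identical copies was not checked.

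Gene sums and distinct sequences were tested with edgeR 4.0.16 (glmQLFTest, TMM, filterByExpr with a minimum count of 10, and for sequences reads in at least 7 libraries), and the ratios within a gene with limma 3.58.1 on log2 values with 0.5 added to each count and a mean of at least 10 reads in both classes. P-values were adjusted by Benjamini-Hochberg over all genes or sequences tested, with a threshold of 0.05. DESeq2 1.42.0 in R 4.3.3 was an alternative. Levels of the protocols were compared by permutation with Python 3.11.15. The tests were checked on simulated data with known changes.

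All groups came from the labels. The members and the lists of other genes were chosen with earlier results of these data known. By rule, the text names the 5 members, the 3 genes with the highest level and every called gene of each other list (up to 5), the 5 genes most correlated with the members, the 3 most read sequences of a member and every called sequence. Some genes that this rule names are not reported here. The coding sequences printed are the 3 most read of each gene that lie wholly in the coding sequence, and those of Mbp are not reported here. WT and AD libraries share replicate numbers, but the correlations of same-numbered libraries ran from -0.29 to 0.44, so the numbers were not taken to pair them. Depth limits single sequences most: at 44422513 to 94872662 reads of 15 to 40 nt, 1 read is 0.0105 to 0.0225 RPM.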

Additional observations from a re-analysis of the deposited data

Results flagged for a closer look

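Of 40 groups of libraries checked for a library that stood apart from the rest of its group (by Dixon's criterion at 95%), 7 held one, where chance gives about 1 in 20. The groups are not independent, since the length classes overlap and the same libraries serve all 5 genes. The count can therefore not be read against that rate. AD replicate 1 of PANDORA-seq was the highest of its group for Mbp at 20 to 45 nt with 99.3 RPM, against 29.3 to 60.1 RPM in the other AD libraries, for Mbp at 41 to 45 nt with 20.2 RPM, against 4.75 to 9.55, and for Mal at 41 to 45 nt with 2.03 RPM, against 0.614 to 1.26. Without it the log2 fold change at 20 to 45 nt was lowest for each of the 5 genes, at 0.35 for Mbp and 0.11 for Mal, and none was called with or without it.

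WT replicate 1 of PANDORA-seq was the highest of its group for Mag, with 16.4 RPM at 20 to 45 nt, against 3.63 to 9.48, and 3.28 RPM at 41 to 45 nt, against 0.913 to 2.02. Without it the log2 fold change of Mag at 20 to 45 nt was 0.86, the highest of the values with 1 library left out. In traditional-seq at 20 to 40 nt WT replicate 6 stood apart for Mag with 1.70 RPM, against 0.169 to 0.696, and AD replicate 7 for Mal with 1.63 RPM, against 0.387 to 0.899.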

How the results depend on the processing

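The shift toward shorter fragments kept its direction and its call for each of the 5 genes in all 95 values under other settings, from -2.32 to -0.52 on the log2 scale with adjusted p of at most 0.042 by limma, including the alternatives that leave out 1 library, which for this ratio, the region ratio and the distinct sequences were chosen after seeing the data. Most other genes kept it too, with 9394 to 10060 called when 1 library was left out. For the gene sums the scale changed the sign of most values, and the cause of the difference between the scales was not tested. On library totals the count of called genes was 7 at 20 to 45 nt, 7 at 20 to 40 nt and 9403 at 41 to 45 nt, and the log2 fold changes at 20 to 45 nt turned to -0.15 (Cnp), -0.36 (Mal), -0.15 (Mobp) and -0.024 (Mag), at 20 to 40 nt to -0.030 (Cnp) and -0.11 (Mal), and at 41 to 45 nt to -0.52 (Cnp), -1.11 (Mal), -0.90 (Mobp), -0.49 (Mag) and -0.56 (Mbp). DESeq2 called 14 genes at 20 to 45 nt. At 41 to 45 nt DESeq2 called 367 and edgeR's likelihood ratio test 263, and with 1 library left out the count ran from 0 to 338, highest without AD replicate 5 and 34 without WT replicate 8. In traditional-seq both alternative tests called 2 genes, and 3 were called with no filter.

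For distinct sequences 748 were called, and 1540 by the likelihood ratio test, 1639 on library totals and 0 among 20 to 40 nt alone. With 1 library left out the count ran from 521 to 2329, highest without AD replicate 6. The fold change of the Mbp sequence from position 1699 then ran from 2.43 to 3.51 on the log2 scale, with adjusted p of 0.0082 to 0.074. The region ratio gave 2 called genes at 20 to 45 nt, where Mal was at -0.045. With 1 library left out it changed sign for Cnp (-0.15 to 0.067), Mal (-0.11 to 0.13) and Mobp (-0.0093 to 0.19), with no call. With the replicate number as a block, 1 gene was called at 41 to 45 nt, 1356 distinct sequences were, and Mobp in traditional-seq was at 0.066. The block changed no call of the 5 genes. It also called the Mbp sequence of 28 nt from position 1038. No library correlated best with the library of the same number. A test restricted to sequences that occur once in the genome was not run. Depth limits single sequences: 12 of the 21798 could be tested, and in traditional-seq Mag, with 103 reads, could not.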
